A study of Mus musculus with 56 samples.

Results

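The genes described here are 10 that ERK signalling is known to switch on: the PEA3-type ETS transcription factors Etv1, Etv4 and Etv5, the Sprouty genes Spry1, Spry2 and Spry4, the Spred genes Spred1 and Spred2, and the phosphatase genes Dusp4 and Dusp6. They were taken by name from 23236 gene symbols. The set was chosen by the Etv5 values in brain, where Etv5 was higher in Fmr1 knockout mice, and the question was whether the other genes moved with it. The differences of Etv5 between KO and WT brain are therefore given as a description without a test.

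Growth factor receptors activate Ras, Raf, MEK and then the kinase ERK, which switches on these genes within hours. Sprouty and Spred proteins act back on the receptor-to-Raf part of the cascade, Dusp6 removes phosphate from ERK in the cytoplasm, Dusp4 acts on MAP kinases in the nucleus, and the PEA3 factors carry the signal to further genes. For this reason the mRNA levels of the set are widely read as a measure of ERK output, in developing brain and in tumour cells alike.

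Mouse RNA was sequenced in 56 libraries of 19 groups. From mice of 2 genotypes, Fmr1 knockout (KO) and wild type (WT), there were 3 libraries each of cortex, hippocampus and cerebellum, and 3 each of liver, muscle and testis. The labels name tissue and genotype and give neither the knockout allele nor strain, age or sex. N2a cells, a mouse neuroblastoma line, received siRNA against Fmr1 (siFmr1, 3 libraries) or a non-targeting siRNA (siNT, 2 libraries). In a second N2a experiment, with 3 libraries per group, siRNA was delivered together with a plasmid by lipofection. Its groups were siNT, siFmr1 and siMbnl1 each with the control plasmid pcDNA, and 2 groups with a plasmid for FLAG-tagged MBNL1: the nuclear form (nMBNL1) was given with siFmr1, the cytosolic form (cMBNL1) with siMbnl1. All of these groups share the transfection. The labels do not say that the libraries of a group came from separate animals or cultures, so the p-values below measure the spread between libraries, which may be technical.

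Brain libraries held 26264368 to 41384652 counts, and all other libraries with deposited counts 13230785 to 16268865. All 10 genes were listed in the brain, muscle and N2a tables, and 9 in liver and testis, where Etv4 was not listed. Fmr1, the targeted gene, fell in KO in 5 tissues, with log2 fold changes from -1.97 in cortex to -1.61 in liver, each past the test. In muscle its log2 fold change was -0.61 (edgeR, adjusted p 0.0734), so the KO label has its weakest check there. Its values were lower in KO muscle without overlap. It passed in 2 of 10 alternatives, DESeq2 (-0.62, adjusted p 0.0356) and edgeR without WT library 1 (-0.74, adjusted p 0.0437). Defining markers of neurons, hepatocytes, muscle fibres and spermatids were present in the tissues so labelled.

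Etv5 lies on chromosome 16 (GRCm38, 22381309 to 22439719, minus strand). The only deposited splicing event of the 10 genes that passed the reporting rule is listed as a choice between its exons 3 and 5. Exons 3 to 5 of a GENCODE M21 transcript of Etv5 are therefore shown here, read 5′ to 3′ on the minus strand of the GRCm38 genome. Capitals mark exons 3 and 5, and lower case marks exon 4 between them.

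Etv5 exons 3 to 5: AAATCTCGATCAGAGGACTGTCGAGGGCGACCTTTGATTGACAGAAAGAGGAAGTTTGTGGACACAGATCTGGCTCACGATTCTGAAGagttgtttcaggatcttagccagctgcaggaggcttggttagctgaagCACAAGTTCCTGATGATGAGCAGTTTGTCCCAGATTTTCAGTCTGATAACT

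In brain, Etv5 mRNA was higher in KO in all 3 regions, and none of the other 9 genes passed the test in any of them. In cortex Etv5 was at 95.3, 95.5 and 74.9 CPM (counts scaled to library size with TMM factors) in WT and at 144, 116 and 139 CPM in KO, 1.5-fold. In hippocampus it was at 55.9, 52.2 and 52.3 CPM in WT and at 93.7, 88.3 and 80.4 CPM in KO, 1.63-fold. In cerebellum it was at 39.0, 44.3 and 39.6 CPM in WT and at 84.4, 74.4 and 81.6 CPM in KO, 1.96-fold. The genotypes did not overlap in any region. Of all genes, 13.2% were higher in KO without overlap in cortex, 9.9% in hippocampus and 6.78% in cerebellum. The region with the lowest WT level had the largest fold. These are bulk tissues, in which fewer cells of a type and less RNA per cell cannot be told apart.

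**Figure D1:**
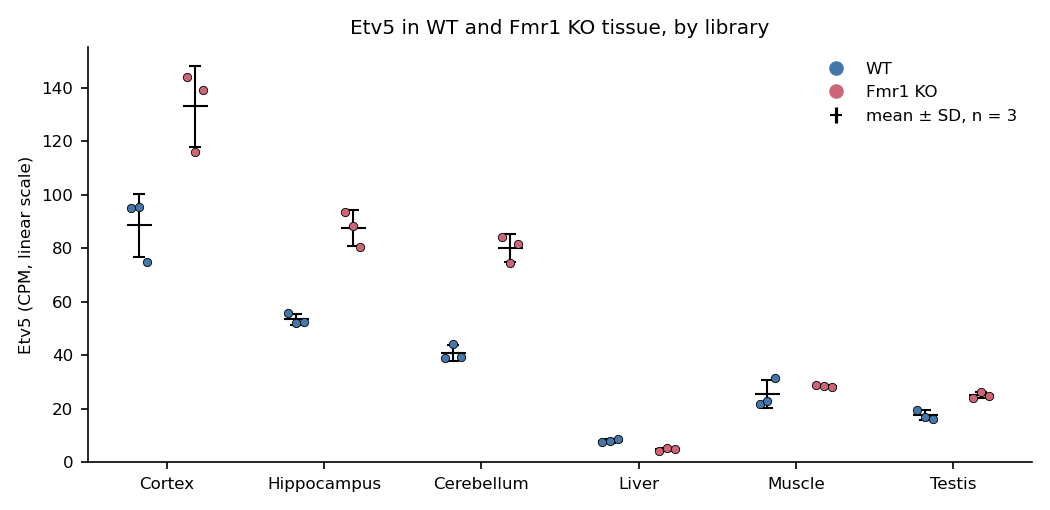
Etv5 in CPM (linear axis from 0) in each library of 6 tissues, WT in blue and Fmr1 KO in red, with the mean and SD of 3 libraries. KO libraries lie above WT in cortex, hippocampus, cerebellum and testis, below WT in liver, and inside the WT range in muscle.

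Some other measures moved with Etv5 in brain. Cortex KO libraries were deeper (30719096 to 32574819 counts) than cortex WT libraries (26264368 to 27786362), and 5 blood and immune markers summed to 66.0 to 69.3 CPM in KO and 74.4 to 90.9 in WT. In hippocampus the summed level of 6 astrocyte markers was 6342 to 7066 CPM in KO and 5833 to 6160 in WT, that of 5 excitatory neuron markers was 5344 to 5867 in KO and 4938 to 5298 in WT, and that of 6 oligodendrocyte markers was 4527 to 4661 in KO and 5476 to 5908 in WT. There, 6 cerebellar granule and Purkinje cell markers also summed to 173 to 189 CPM in KO and 167 to 172 in WT. At an edgeR adjusted p under 0.05, 3 of the 6 oligodendrocyte genes fell in hippocampus, beside 0.209% of all genes that changed. In the astrocyte and excitatory neuron lists 0 genes did. In cerebellum 6 endothelial and mural markers summed to 216 to 221 CPM in KO and 200.0 to 213 in WT. Their part in the Etv5 values was not tested.

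The other 9 genes showed small differences in brain. A gene was called at an adjusted p under 0.05 (edgeR quasi-likelihood test, Benjamini-Hochberg over all genes tested). Of the 9, 0 were called in cortex (0.0203% of all genes were), 0 in hippocampus (0.209%), 0 in cerebellum (0.226%) and 0 over the 3 regions together (3.48%). At an unadjusted p under 0.05 there were 0, 2, 3 and 1 of the 9. Of all genes, 3110 of 14802, 1852 of 14843, 1276 of 14627 and 3267 of 15504 had such a p. Over the 3 regions the log2 fold changes of the 9 lay between -0.08 and 0.11 with a median of 0.0095, against -0.0047 for all genes. By region their medians were -0.07 in cortex, 0.0025 in hippocampus and 0.10 in cerebellum, with 4, 5 and 7 of the 9 above 0. The medians of all genes there were -0.0016, 0.00024 and 0.0043. DESeq2 also called 0 of the 9 in each of these comparisons. The background turned on single libraries: edgeR called 1102 genes in cortex without WT library 3, 256 in cerebellum without WT library 3 and 1721 over the 3 regions without that cerebellum library. Of the 9 genes, 0, 1 and 0 were called in those fits. The labels do not say whether the 3 regions came from the same animals, and p-values over the 3 regions are too small if they did.

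The lowest adjusted p among the 9 was that of Spry2 over the 3 regions, Dusp6 in hippocampus and Spred2 in cortex and cerebellum. Spry2, a Sprouty inhibitor with wide expression in brain, was at 39.3, 39.9 and 37.0 CPM in WT cerebellum and at 43.7, 44.3 and 41.2 in KO. The groups did not overlap, yet the difference did not pass (log2 fold change 0.16 ± 0.06 SE, edgeR adjusted p 0.453). Across the 3 regions Spry2 differed by 0.11 ± 0.04 (edgeR adjusted p 0.113).

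Dusp6, the cytoplasmic ERK phosphatase, was at 15.4, 13.9 and 13.9 CPM in WT cerebellum and at 17.2, 16.3 and 16.5 in KO (0.22 ± 0.08, edgeR adjusted p 0.401). In hippocampus its values were 42.9, 43.3 and 47.2 CPM in WT and 47.1, 55.6 and 56.5 in KO (0.25 ± 0.08, edgeR adjusted p 0.272), and in cortex 56.1, 58.2 and 58.8 CPM in WT and 43.2, 53.1 and 61.4 in KO (-0.13 ± 0.11). In cerebellum 2 of the 9, Dusp6 and Spry2, were higher in KO without overlap, beside the 6.78% of all genes given above.

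Etv1 and Etv4, the PEA3 factors closest to Etv5, were not among those called. Etv1 had log2 fold changes of 0.16, -0.05 and -0.03 in cortex, hippocampus and cerebellum, and Etv4 of -0.07, 0.18 and -0.16. In hippocampus Etv4 was the 1 gene of the 9 higher in KO without overlap (edgeR adjusted p 0.514), beside 9.9% of all genes. Spred2, a membrane inhibitor of Ras to Raf signalling, was at 60.0, 70.6 and 73.9 CPM in WT cerebellum and at 84.9, 72.7 and 85.0 in KO (0.25 ± 0.08, edgeR adjusted p 0.357). It was called only in the cerebellum fit without WT library 3 (0.31, edgeR adjusted p 0.0487). The genotype effect of none of the 9 was called as differing between regions (0 of 15504 genes were, 0.0%, and 1851 had an unadjusted p under 0.05). The lowest adjusted p in that test among the 9 was 0.305, for Spred2.

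Upstream of these genes, 3 of 34 members of the ERK cascade were called over the 3 regions, where 3.48% of all genes were, all 3 higher in KO. Among them were Nras, a Ras GTPase (0.23 ± 0.03, edgeR adjusted p 0.00126), and Araf, a Raf kinase (0.14 ± 0.04, 0.0499). Of 25 other ERK output genes tested, 1 was called: Fosb, an immediate-early transcription factor, fell (-0.38 ± 0.09, edgeR adjusted p 0.0262). No gene of either list was called in a single region by edgeR, where 2 to 8 had an unadjusted p under 0.05. Of 8 other MAP kinase phosphatases and 14 other ETS factors, edgeR called 0 over the 3 regions, and 1 and 4 had an unadjusted p under 0.05.

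The genes whose log2 CPM ran most like that of Etv5 over the 18 brain libraries were not from the ERK pathway list. They were Atxn7l3b (Pearson r 0.93), Eif2a (0.89), Atp6ap1 (0.88), Amn1 (0.87) and Hspa8 (0.87), out of 11561 genes with a mean of at least 5 CPM. Among the other 9, Spred1 (0.67), Spry2 (0.63) and Dusp6 (0.57) ran most with Etv5, and Etv1 (-0.55) ran most against it. These coefficients describe libraries that share region and genotype. With both taken out the order changed: among the 9, Spred2 (0.63, from -0.22) and Spred1 (0.57) then ran most with Etv5, Etv1 turned to 0.41, and Spry4 (-0.54), Spry1 (-0.34) and Dusp6 (-0.32) ran against it, while Atxn7l3b was at 0.58. Of 17 listed genes within 1000000 bases of Etv5, 1 was called over the 3 regions (Dnajb11, 0.13, edgeR adjusted p 0.0421), where 3.48% of all genes were.

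Between WT brain regions most of the 10 genes were called, as were many of all genes. Against cortex, 7 of the 10 were called in hippocampus (41.8% of all genes were) and 6 in cerebellum (67.2%), and between cerebellum and hippocampus 7 (69.4%). These comparisons share their libraries. Each count includes Etv5, whose WT brain libraries were among the values that chose the set. Etv1 was at 114, 117 and 88.9 CPM in cortex, 155, 150 and 149 in hippocampus and 532, 530 and 575 in cerebellum. It was 5.07-fold higher in cerebellum than in cortex (2.34 ± 0.10, edgeR adjusted p 3.11e-09).

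Dusp6 ran the other way across regions. From the values above, its log2 fold change was -2.02 ± 0.08 in cerebellum against cortex (edgeR adjusted p 1.65e-09) and -1.64 ± 0.07 against hippocampus (6.43e-08). Etv5, given as a description, had the same order: its log2 fold change in cerebellum against cortex was -1.13 ± 0.10. So in WT cerebellum Etv1 was at its highest of the 3 regions while Etv5 and Dusp6 were at their lowest. Dusp4 was highest in hippocampus, at 17.2, 15.8 and 17.0 CPM against 6.31, 6.10 and 5.79 in cortex (1.47 ± 0.09, edgeR adjusted p 9.16e-06).

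Spred1 was highest in cortex, at 329, 353 and 336 CPM, against 190, 184 and 180 in hippocampus (-0.86 ± 0.05, edgeR adjusted p 5.24e-06). Spry4 and Spred2 were not called in any of the 3 region comparisons. The region calls of Spry1, and those of Spry2 that involve cerebellum, were weak: of 10 alternative settings, 4 ended the Spry1 call between hippocampus and cortex, 8 its call between cerebellum and hippocampus, and 7 each of the Spry2 calls.

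In TPM, a unit scaled by transcript length and by library, the order of the genes changed from tissue to tissue. TPM tables were normalized separately for brain, liver, muscle, testis and N2a, so levels set across them are rough. Etv5 averaged 62.1 ± 7.84 TPM in WT cortex, 37.6 ± 1.35 in hippocampus and 31.1 ± 1.96 in cerebellum (mean ± SD, n = 3). It averaged 10.1 ± 2.21 TPM in muscle, 8.16 ± 1.01 in testis and 3.34 ± 0.412 in liver. Muscle and testis were within their spread of each other, and the other tissues stood apart in the order given. N2a siNT libraries, at 76.8 and 58.1 TPM, were at the cortex level.

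The tissue with the highest level differed from gene to gene. Etv1 was highest in cerebellum (405 ± 24.4 TPM), Spred1 in cortex (141 ± 5.72), Spry1 in muscle (22.1 ± 2.97) and, among tissues, Dusp4 in testis (23.0 ± 1.31). N2a cells had the highest Etv4 (81.5 and 111 TPM) and Dusp4 (181 and 152). Dusp6 in WT liver spanned 15.6 to 206 TPM, from below every cortex library to above every other library of the tissues.

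**Figure D2:**
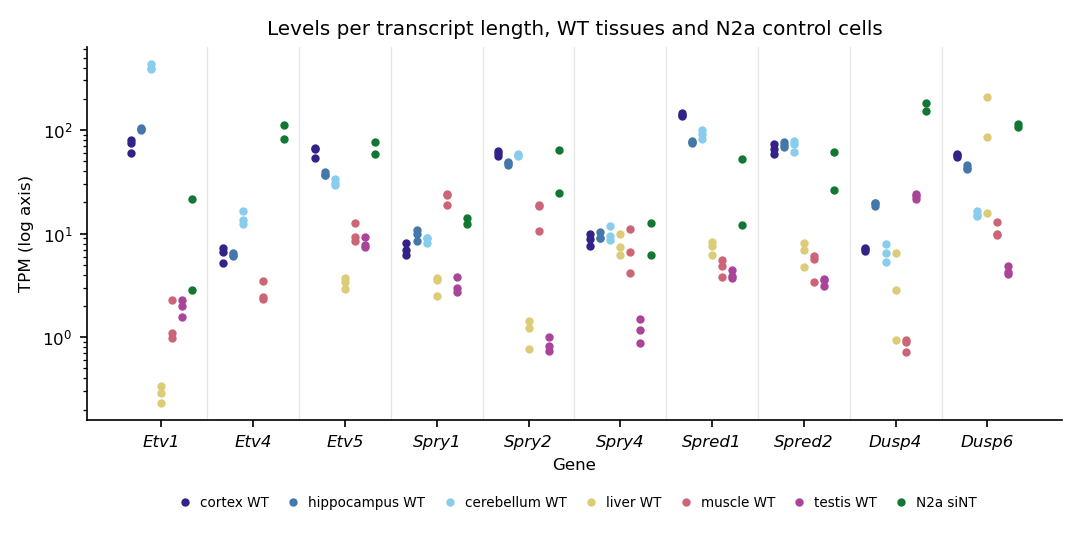
TPM (log axis) of the 10 genes in each library of 6 WT tissues and of N2a cells with siNT; points are libraries, and Etv4 was not listed in liver and testis. Etv1 peaks in cerebellum and Dusp4 and Etv4 in N2a cells, and the 3 liver libraries of Dusp6 span more than those of any other gene.

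In liver all 8 genes tested, Etv5 included, had log2 fold changes below 0 in KO, and 0 were called (0.411% of all genes were). Of the 8, 7 had an unadjusted p under 0.05, as did 1365 of all 11928 genes. Their median was -0.87, against -0.0037 for all genes, and 4 of the 8 were lower in KO without overlap, as were 8.47% of all genes. Etv1 was too low to test, at 0.41 to 0.89 CPM over the 6 libraries.

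Etv5 was at 7.50, 7.94 and 8.82 CPM in WT liver and at 4.40, 5.45 and 5.13 in KO. Every KO library was below every WT library, and the difference did not pass (-0.69 ± 0.18, edgeR adjusted p 0.17). Spry4, an inhibitor of receptor signalling, was at 19.4, 27.5 and 21.3 CPM in WT and at 14.8, 13.9 and 8.54 in KO (-0.87 ± 0.23, edgeR adjusted p 0.172). Spred2 was at 9.0, 11.9 and 14.2 CPM in WT and at 6.46, 7.69 and 4.99 in KO (-0.87 ± 0.23, edgeR adjusted p 0.174). Both were also without overlap.

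The phosphatase genes varied most between WT livers. Dusp6 was at 29.1, 341 and 146 CPM in WT and at 67.1, 67.6 and 45.0 in KO, so WT library 1 lay below all KO libraries and WT library 2 far above (-1.52 ± 0.66, edgeR adjusted p 0.425). Dusp4 was at 4.57, 1.33 and 9.35 CPM in WT and at 0.962, 1.27 and 1.57 in KO (-1.97 ± 0.61, edgeR adjusted p 0.255). Spry1, Spry2 and Spred1 had log2 fold changes of -0.35, -1.05 and -0.39 with edgeR adjusted p of 0.38 to 0.591.

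The liver calls turned on the tool and on single WT libraries. DESeq2 called 3: Spry4 (adjusted p 0.0186), Spred2 (0.0357) and Dusp4 (0.0133), and it called 277 of all 12258 genes. Without WT library 1, edgeR called Spred2 (-1.03, adjusted p 0.0392) and Dusp6 (-2.02, 0.0142), and without WT library 2 it called Dusp4 (-2.44, 0.0366). Leaving out any 1 library gave 13 to 284 called genes in all. Over 10 alternatives Etv5 lay between -0.76 and -0.61 and was never called. No direction turned in liver under any of them.

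Other ERK outputs had mostly lower values in KO liver. Of 14 tested, 12 had log2 fold changes below 0 and 12 an unadjusted p under 0.05, with a median of -2.23, and 1 was called. That was Dusp1, an immediate-early MAP kinase phosphatase, at 111 ± 68.9 CPM in WT and 13.6 ± 4.68 in KO (n = 3 each; -3.03 ± 0.43, edgeR adjusted p 0.0266). Of 30 genes of the ERK cascade, 0 were called in liver and 3 had an unadjusted p under 0.05, and their median was -0.02. Erf, an ETS repressor that ERK is known to inactivate, fell as well (-0.77 ± 0.13, edgeR adjusted p 0.0451). The summed hepatocyte markers overlapped between genotypes, at 99091 to 117294 CPM in KO and 89482 to 99846 in WT. Some lists for other cells did not overlap in liver: the 2 genes present of 5 for oligodendrocyte precursors summed to 6.02 to 6.25 CPM in KO and 3.41 to 5.15 in WT, and the 3 present of 6 for oligodendrocytes to 10.2 to 15.5 and 15.5 to 21.4. Their part was not tested.

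**Figure D3:**
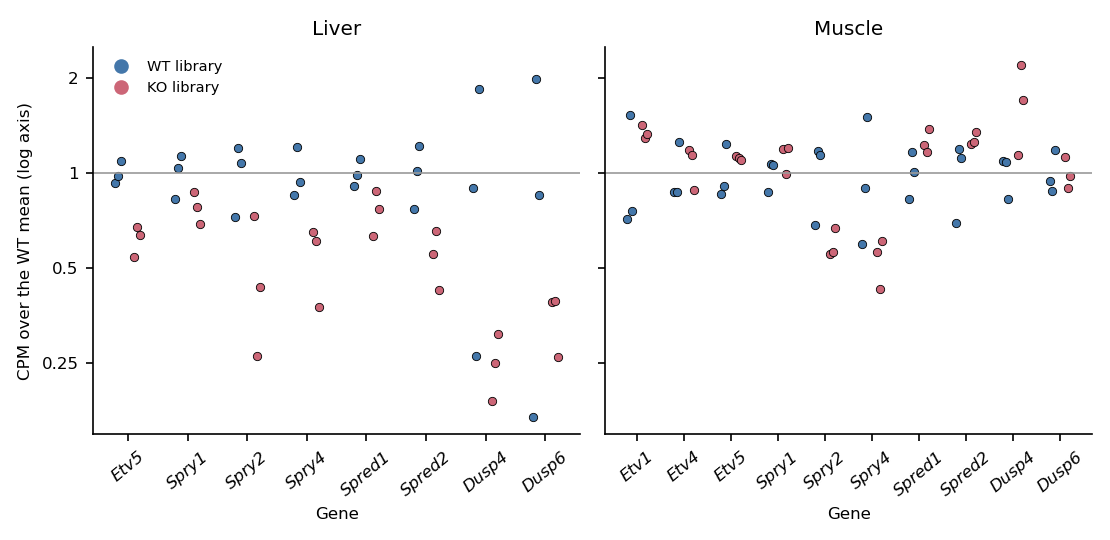
Each library's CPM divided by the WT mean of that gene (log axis; the line is 1) in liver and muscle, WT in blue and KO in red, 3 libraries each. In liver KO libraries of Etv5, Spry4, Spred1 and Spred2 lie below all WT libraries and WT libraries of Dusp4 and Dusp6 scatter widely; in muscle Spry2 and Spry4 lie low and Dusp4 high in KO.

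In muscle the genes differed in direction. Of the 10, 0 were called (4.04% of all genes were). An unadjusted p under 0.05 was found for 4 of them, and for 3281 of all 12688 genes. Spry2 was at 14.1, 24.3 and 23.6 CPM in WT and at 11.5, 11.6 and 13.9 in KO, without overlap (-0.74 ± 0.20, edgeR adjusted p 0.067). Spry4 was at 13.2, 19.9 and 33.3 CPM in WT and at 12.4, 9.50 and 13.5 in KO (-0.90 ± 0.29, edgeR adjusted p 0.102). DESeq2 called both (adjusted p 0.0119 and 0.0162), and it called 1093 of all 13072 genes. So did edgeR call both without WT library 1 (adjusted p 0.00405 and 0.0207), the WT library with the lowest value of each. Leaving out any 1 library gave 18 to 559 called genes in all.

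Dusp4 and Spred2 had higher values in KO muscle. Dusp4 was at 1.44, 1.43 and 1.09 CPM in WT and at 1.51, 2.91 and 2.24 in KO (0.75 ± 0.32, edgeR adjusted p 0.184), and Spred2 at 6.47, 11.1 and 10.4 in WT and 11.5, 11.7 and 12.5 in KO (0.36 ± 0.20, edgeR adjusted p 0.275). Both were higher without overlap, as were 16.2% of all genes in muscle, and Spry2 was among the 15.4% that were lower without overlap. Etv5 was at 21.9, 23.1 and 31.4 CPM in WT and at 28.8, 28.5 and 28.1 in KO (0.16 ± 0.14, edgeR adjusted p 0.487). In TPM the same libraries did not overlap, with 8.43, 9.31 and 12.6 in WT and 13.2, 12.8 and 13.6 in KO.

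Other ERK outputs were mostly lower in KO muscle, with 7 called lower and 2 higher of 25 tested, beside the 4.04% of all genes. The largest changes were in the transcription factors Egr1 (250.1 ± 156 CPM in WT, 13.1 ± 4.82 in KO; -4.25 ± 0.55, edgeR adjusted p 0.0102), Fos (-4.15 ± 0.76, 0.0262), Egr3 (-3.71 ± 0.56, 0.0156) and Egr2 (-3.14 ± 0.72, 0.0451). Of the 33 cascade genes tested, 3 receptors rose: Fgfr3 (1.27 ± 0.23, edgeR adjusted p 0.025), Egfr (1.08 ± 0.18, 0.0192) and Ntrk2 (0.96 ± 0.13, 0.0135). The phosphatase Dusp10 fell (-0.90 ± 0.13, edgeR adjusted p 0.0156), and of the other ETS factors Elf4 rose (0.85 ± 0.18, 0.0373) and Ets2 fell (-0.41 ± 0.09, 0.0439). Marker sums moved with these values: 6 microglia markers, some of which tissue macrophages share, summed to 82.6 to 86.7 CPM in KO and 43.6 to 53.2 in WT, 4 adipocyte genes to 104 to 257 and 56.3 to 81.9, and 4 satellite cell genes to 17.2 to 22.0 and 11.6 to 15.6. Their part was not tested.

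Testis gave the one tissue test of Etv5 outside brain that passed. Etv5, which is known there for the upkeep of spermatogonial stem cells, was at 19.7, 16.9 and 16.3 CPM in WT and at 24.1, 26.4 and 24.7 in KO, 1.42-fold and without overlap, as were 10.9% of all genes on that side (0.51 ± 0.10, edgeR adjusted p 0.00193). It was the only one called of the 9 tested (4.27% of all genes were), and it was called in all 10 alternatives, with log2 fold changes of 0.46 to 0.60 and adjusted p up to 0.0265. The other 8 did not pass. Dusp6 was at 7.29, 6.63 and 6.41 CPM in WT and at 5.31, 5.47 and 5.88 in KO (-0.29 ± 0.16, edgeR adjusted p 0.361), and Spred2 at 5.69, 5.69 and 5.11 in WT and 4.79, 4.65 and 4.60 in KO (-0.24 ± 0.18, 0.524). Both were lower without overlap, as were 9.75% of all genes in testis, and the remaining 6 overlapped.

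In the testis pathway lists, Rasa1, a Ras GTPase-activating protein, rose (0.24 ± 0.07, edgeR adjusted p 0.0321), and the ETS factors Erf (-0.52 ± 0.12, 0.00873) and Fev (-0.71 ± 0.21, 0.044) fell. Of 19 other ERK outputs tested in testis 0 were called by edgeR, and 4 had an unadjusted p under 0.05, as did 2836 of all 15465 genes. The 6 Sertoli cell markers summed to 952 to 1035 CPM in KO and 1065 to 1320 in WT, and the 5 Leydig cell markers to 1003 to 1048 and 1077 to 1419. The 4 markers listed for undifferentiated spermatogonia overlapped, at 19.6 to 22.5 CPM in KO and 19.0 to 22.0 in WT. The part of these cells in the Etv5 difference was not tested.

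**Figure D4:**
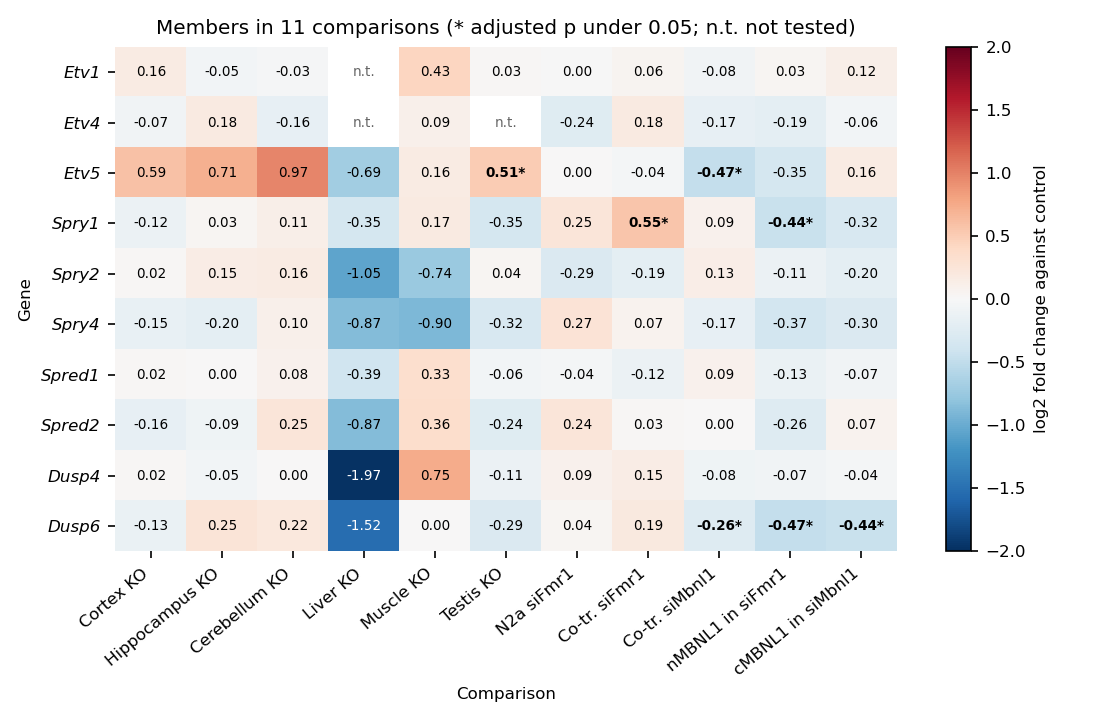
Log2 fold changes of the 10 genes in 11 comparisons (KO against WT in tissues, siRNA or MBNL1 plasmid against its control in N2a cells), coloured from -2 (blue) to 2 (red). Asterisks mark an adjusted p under 0.05 by edgeR or, in the co-transfection, limma; Etv5 in the 3 brain regions chose the set and has no test.

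In N2a cells with siRNA alone, 0 of the 10 genes were called (0.0% of 12187 genes; 47 had an unadjusted p under 0.05 by edgeR and 51 by DESeq2, which also called 0). Etv5 was at 152 and 198 CPM with siNT and at 161, 152 and 212 with siFmr1 (0.00 ± 0.30, edgeR adjusted p 1). The libraries fell into 2 sets that cut across treatment: the first principal component held 74.0% of the variance and set siNT 2 and siFmr1 3 apart from the other three. Dusp6 followed that split, at 280 and 332 CPM in those 2 libraries and 150 to 172 in the others. With the split in the fit, an alternative chosen after seeing the data, again 0 genes were called, and Etv5 differed by 0.07. Fmr1 itself was at 77.7 and 22.4 CPM with siNT and at 14.7, 14.7 and 2.12 with siFmr1 (-2.25 ± 0.86, edgeR adjusted p 1).

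The unit of the co-transfection experiment is the authors' normalized count, and it was tested with limma on log2(value + 1). Fmr1 fell by 2.37 with siFmr1, Mbnl1 fell by 1.56 with siMbnl1, and Mbnl1 rose by 1.41 with nMBNL1 and by 3.72 with cMBNL1. The siFmr1 and siMbnl1 comparisons share the siNT libraries, the nMBNL1 comparison uses the siFmr1 libraries as controls and the cMBNL1 comparison the siMbnl1 libraries.

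After siFmr1, Spry1 rose and Etv5 did not pass the test. Spry1, a Sprouty inhibitor, was at 818, 814 and 848 normalized counts with siNT and at 1275, 1143 and 1228 with siFmr1, 1.47-fold and without overlap (0.55 ± 0.10, limma adjusted p 0.000292, called in all 10 alternatives). It was the only one of the 10 called, in a comparison where 37.0% of all genes were. Etv5 was at 3918, 5070 and 4277 with siNT and at 4352, 4640 and 3908 with siFmr1 (-0.04 ± 0.09, limma adjusted p 0.802). Etv4 (0.18 ± 0.07, limma adjusted p 0.0527) and Dusp6 (0.19 ± 0.09, 0.111) were higher without overlap, as were 22.9% of all genes, and did not pass.

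The single siNT and siFmr1 libraries weighed on the other members. Leaving out siNT 1 added calls of Spry2 (-0.29, limma adjusted p 0.00497) and Spred1 (-0.21, 0.0424), leaving out siNT 2 added Spry4 (0.22, 0.0264) and Dusp4 (0.25, 0.0079), and leaving out siFmr1 3 added Etv4 (0.22, 0.0422). Beside the 37.0% of all genes, 10 of 25 other ERK outputs were called. Of these 2 rose and 8 fell, led by Egr3 (-1.37 ± 0.18), the urokinase receptor gene Plaur (-0.97 ± 0.12), Arc (0.90 ± 0.17) and Dusp1 (-0.81 ± 0.10), with limma adjusted p of at most 0.000491. Of 32 cascade genes 9 rose and 8 fell, led by the receptor genes Fgfr3 (1.52 ± 0.14) and Egfr (-0.92 ± 0.13), the adaptor Frs2 (-0.74 ± 0.09) and Fgfr1 (0.52 ± 0.11). Of 8 phosphatases, of which Dusp1, Dusp2 and Dusp5 are also among the outputs, 2 rose and 5 fell, led by Dusp9 (1.38 ± 0.19), and of 14 ETS factors 2 rose and 6 fell, led by Erg (1.87 ± 0.22). The 7 neuroblastoma markers summed to 30871 to 33365 normalized counts with siFmr1 and 21992 to 28037 with siNT, and their part was not tested.

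After siMbnl1, Etv5 and Dusp6 fell, 2 of 10 called against 32.8% of all genes. Etv5 was at 3053, 3026 and 3460 normalized counts, below the 3 siNT values given above (-0.47 ± 0.09, limma adjusted p 0.00129, called in all 10 alternatives). Dusp6 was at 7494, 7767 and 8171 with siNT and at 6693, 5936 and 6929 with siMbnl1 (-0.26 ± 0.09, limma adjusted p 0.033). Both genes and Etv4 (-0.17 ± 0.07, limma adjusted p 0.0637) were lower without overlap, as were 18.3% of all genes. The Dusp6 call was lost in 4 of 10 alternatives: without siMbnl1 1 (adjusted p 0.0588), siMbnl1 2 (0.154) or siNT 3 (0.0969), and in a limma fit of these 2 groups alone (0.101). Leaving out siNT 2 raised the number called to 5, with Etv4 (-0.19), Spry2 (0.21) and Spred1 (0.20) added, and leaving out siNT 1 added Spry4 (-0.27). Of 25 other ERK outputs 8 were called higher and 2 lower, and 14 had log2 fold changes above 0, with a median of 0.09 against 0.0074 for all genes. Among those called were Egr2 (1.40 ± 0.19), Myc (1.21 ± 0.08), Flrt3 (1.19 ± 0.17) and Spred3 (-0.96 ± 0.10).

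Beside the same 32.8% of all genes, siMbnl1 raised 4 and lowered 9 of the 32 cascade genes, led by Nras and the receptor gene Ntrk3 (each -0.61), Shc1 (-0.50) and Rps6ka3 (-0.43). Of the phosphatases Dusp9 (1.13 ± 0.19), Dusp7 (0.45 ± 0.12) and Dusp10 (0.30 ± 0.07) rose, with limma adjusted p of at most 0.00955. Of the ETS factors 4 rose and 2 fell, led by Erg (1.61 ± 0.22) and Etv3 (0.72 ± 0.08).

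**Figure D5:**
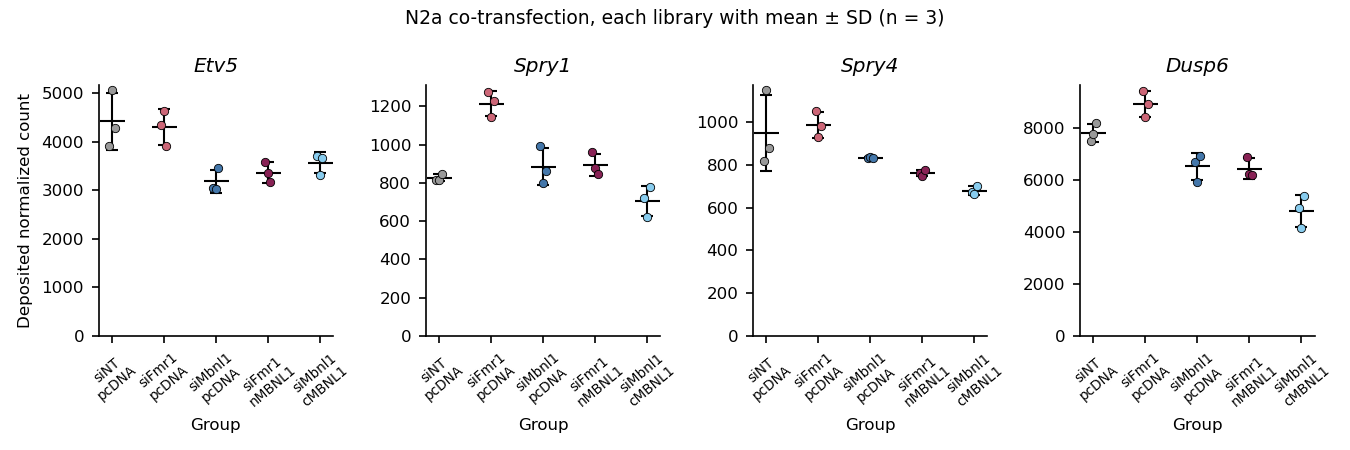
Deposited normalized counts (linear axes from 0) of Etv5, Spry1, Spry4 and Dusp6 in each of 15 N2a co-transfection libraries, with the mean and SD of 3 per group. Spry1 is highest with siFmr1 and pcDNA, and Dusp6 is lower with each MBNL1 plasmid than with pcDNA and the same siRNA.

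Adding nuclear MBNL1 to siFmr1 cells lowered Spry1 and Dusp6, and 9 of the 10 genes had log2 fold changes below 0. Spry1 was at 959, 880 and 845 normalized counts with nMBNL1, against 1275, 1143 and 1228 with pcDNA (-0.44 ± 0.10, limma adjusted p 0.0299). Dusp6 was at 6887, 6213 and 6187 with nMBNL1, against 9403, 8408 and 8899 with pcDNA (-0.47 ± 0.09, limma adjusted p 0.0184). These were the 2 called, against 1.75% of all genes, and 7 of the 10 were lower without overlap, against 16.3%. The median of the 10 was -0.22, against 0.00055 for all genes.

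Etv5 (-0.35 ± 0.09, limma adjusted p 0.0689), Spry4 (-0.37 ± 0.10, 0.0696), Etv4 (-0.19 ± 0.07, 0.158), Spred1 (-0.13 ± 0.09, 0.472) and Spred2 (-0.26 ± 0.12, 0.279) were the other 5 without overlap. A limma fit of these 2 groups alone called 6: Etv4, Etv5, Spry1, Spry4, Spred2 and Dusp6. That fit called 2805 of all 16305 genes. Both calls of the 15-library fit were lost without any single siFmr1 pcDNA library or without nMBNL1 2 or 3 (limma adjusted p 0.0536 to 0.157), with log2 fold changes of -0.51 to -0.40. In the pathway lists Hras rose (0.35 ± 0.08, limma adjusted p 0.0436), and Egr3 (-0.81 ± 0.18, 0.0344) and Spred3 (-0.50 ± 0.10, 0.0232) fell.

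Adding cytosolic MBNL1 to siMbnl1 cells lowered Dusp6, the 1 gene called of 10 (2.24% of all genes were). Dusp6 was at 4926, 4158 and 5374 normalized counts with cMBNL1, against 6693, 5936 and 6929 with pcDNA (-0.44 ± 0.09, limma adjusted p 0.0225). The call was lost without cMBNL1 1 (0.0628), cMBNL1 2 (0.115), siMbnl1 1 (0.109) or siMbnl1 3 (0.0706). Spry1 (-0.32 ± 0.10, limma adjusted p 0.0805), Spry2 (-0.20 ± 0.08, 0.183) and Spry4 (-0.30 ± 0.10, 0.12) were also lower without overlap, as were 16.7% of all genes. A limma fit of the 2 groups alone called these 3 as well, and called 2849 of all 16087 genes. Etv5 was at 3707, 3314 and 3664 with cMBNL1, against 3053, 3026 and 3460 (0.16 ± 0.09, limma adjusted p 0.357). In the pathway lists Egr3 (-0.84 ± 0.18, limma adjusted p 0.029) and Phlda1 (-0.60 ± 0.10, 0.00859) fell.

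Few splicing events of the set passed in the authors' deposited tables. The authors' deposited tables listed 170 events of the 10 genes over all experiments, of which 10 had a deposited FDR under 0.05 and 1 also met an inclusion difference of at least 0.1 and a mean of at least 20 junction reads. In the tissues the authors' deposited tables listed 24 events, 0 of them with an FDR under 0.05, and none was listed for cortex. The single event is listed as a choice between Etv5 exon 5 (22435877 to 22435927, 51 bases) and exon 3 (22436201 to 22436288, 88 bases) printed above. It is in the authors' deposited table that the labels give for siNT and siFmr1 with pcDNA. Both exons are coding.

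In the authors' deposited table the inclusion level was 0.668, 0.676 and 0.66 in the first set of libraries and 0.264, 0.526 and 0.418 in the second (difference 0.265, deposited FDR 4.48e-05). The table does not state which set is which group. Inclusion reads in the authors' deposited table were 236, 240 and 265 in the first set and 48, 241 and 104 in the second. Reads of the other form were 99, 97 and 115 against 113, 183 and 122. As skipped exons, the authors' deposited tables listed both exons at inclusion levels of 0.919 to 1.0 in the same libraries, with FDR of 0.613 and 1. In the first set exon 3 then had 235, 240 and 268 inclusion reads, and exon 5 had 99, 97 and 118. So neither exon was often skipped, and the level of the listed choice sets reads of exon 3 against those of exon 5. In the authors' deposited table that the labels give for siFmr1 with nMBNL1, the same event had a difference of 0.009 and an FDR of 0.996. The second set of that table held the same reads as the first set above. For exon 3 as a skipped exon, the second set held 54, 242 and 108 inclusion reads in the authors' deposited table above and the same reads in those that the labels give for siMbnl1 with pcDNA and with cMBNL1. No direction between groups is drawn from this event.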

How the data were processed

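RNA was sequenced in 56 samples, grouped by sample title. The 10 genes and the pathway and marker lists were chosen with earlier results of these data known. Per the file headers, the authors deposited integer read counts and TPM per gene for all tissues and for the N2a experiment with siRNA alone. The authors deposited the co-transfection values as normalized counts, a signal whose normalization the table does not state, with 31871612 to 33196383 per library, so its depth is unknown, and 27 rows with a date in place of a symbol were dropped. Splicing values are the authors' deposited rMATS junction reads, p-value columns (FDR) and inclusion differences, the latter a score between sets of libraries. Per the submitters' processing notes, tools included STAR 2.6.1, RSEM 1.3.1, Bowtie2 2.3.5, Trimmomatic 0.39, FastQC 0.11.8 and DESeq2 1.16.1, and the build was GRCm38. How each was used is not given in the sources used here.

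For counts, edgeR 4.0.16 (R 4.3.3) was used: genes passed filterByExpr, libraries were scaled by TMM, and the quasi-likelihood F test was run on the 2 groups compared, or on 18 brain libraries with region as covariate. Co-transfection values were tested with limma 3.58.1 in 1 fit of 15 libraries, on log2(value + 1) computed here from the deposited values, keeping genes whose mean was 1 or more. SE is of the log2 fold change. Adjusted p-values are Benjamini-Hochberg over all genes tested. Alternatives were DESeq2 1.42.0, RLE size factors, no filter on low counts, other pseudocounts, a fit of 2 groups, a replicate block and leaving out each library. Scripts were tested on simulated data with seeded changes. No 2 libraries held identical values, and 2 sample columns that match no label were not used. Named were the 10 genes, Fmr1, Mbnl1, the 5 genes most like Etv5, and of each pathway list all called genes (up to 6) or the 4 largest changes; 1 called gene is not reported here.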

Additional observations from a re-analysis of the deposited data

Results flagged for a closer look

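In some pairs of tissues every KO library of a gene lay above every WT library in one and below every WT library in the other. These differences between tissues were not tested, since the tables were normalized separately. In the single tissues 6.78% to 16.2% of all genes lay without overlap on the side named here. The share of all genes with such opposite pairs was not computed. Of the values below, edgeR called only that of Etv5 in testis, and Etv5 in brain chose the set and has no test. For Etv5 the log2 fold change in liver (-0.69) lay 1.28 below that in cortex (0.59), 1.40 below hippocampus (0.71), 1.66 below cerebellum (0.97) and 1.20 below testis (0.51). Spry2 was higher in KO cerebellum (0.16) and lower in KO muscle (-0.74), a gap of 0.90. Spred2 was higher in KO muscle (0.36) and lower in KO liver (-0.87) and testis (-0.24), with gaps of 1.23 and 0.59. Dusp6 was higher in KO cerebellum (0.22) and lower in KO testis (-0.29), a gap of 0.50.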

How the results depend on the processing

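Of 1723 values of single genes under alternatives, 1651 stayed on their side of the threshold, 44 lost a call, 28 gained one and 0 changed sign in a called value. The 52 values of Etv5 in brain moved by less than its spread. Of 184 counts of called genes, 25 moved. DESeq2 called 3 of the genes in liver and 2 in muscle, where edgeR called 0. A limma fit of the 2 groups alone called 1 gene for siMbnl1, 6 for nMBNL1 and 4 for cMBNL1. Leaving out 1 library gave 0 to 1 called genes in cerebellum, 0 to 2 in liver, 0 to 2 in muscle, 1 to 3 for siFmr1, 1 to 5 for siMbnl1, 0 to 2 for nMBNL1 and 0 to 1 for cMBNL1. Over all genes, DESeq2 called 904 in cortex against 3 by edgeR, 259 against 31 in hippocampus, 92 against 33 in cerebellum, 277 against 49 in liver, 1093 against 512 in muscle, 1065 against 539 over the 3 brain regions and 191 against 0 for the difference between regions, while in testis it called fewer, 470 against 661. Leaving out 1 library gave 1 to 1102 genes in cortex (1102 without WT 3), 1 to 21 in hippocampus, 6 to 256 in cerebellum (256 without WT 3), 195 to 1721 over the regions (1721 without cerebellum WT 3), 0 to 225 for the difference between regions (225 without cortex WT 3), 13 to 284 in liver (284 without WT 1), 18 to 559 in muscle (18 without KO 3), 173 to 1256 in testis (1256 without KO 1), 24 to 184 for nMBNL1 and 37 to 182 for cMBNL1, so the shares of all genes called are unsteady. The 2-group limma fits called 3654 genes for siFmr1, 2423 for siMbnl1, 2805 for nMBNL1 and 2849 for cMBNL1, against 6003, 5322, 284 and 364.

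Libraries with the same replicate number did not pair: no comparison had every pair over 0.1, and correlations reached from -0.73 to 0.66 in hippocampus. For siMbnl1 all 3 libraries correlated best with their own number, a hint from the data and not from the design. With the replicate block the number of all genes called was 1 in cortex, 1 in hippocampus, 39 in cerebellum, 24 in liver, 31 in muscle, 377 in testis, 98 over the brain regions, 0 in the N2a experiment with siRNA alone by edgeR (300 had an unadjusted p under 0.05), 194 for nMBNL1 and 289 for cMBNL1. Among the 10 genes the replicate block ended only the calls of Spry1 (adjusted p 0.0598) and Spry2 (0.0657) between WT cerebellum and WT hippocampus.

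With 3 libraries per group, and 2 for siNT alone, the number of libraries limits the precision of these tests. Dusp4 in liver and muscle, under 10 CPM in every library, rests on few reads, and the depth of the co-transfection libraries is unknown.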
